A study of Papio hamadryas with 11 samples.

Results

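The genes described here encode coat proteins and lipases of lipid droplets: the perilipins PLIN1, PLIN2, PLIN3, PLIN4 and PLIN5, the droplet-fusion proteins CIDEB and CIDEC, the lipases PNPLA2 and PNPLA3, and the droplet-bound dehydrogenase HSD17B13. These 10 genes were chosen by name, and every probe listed for them in the platform annotation, which names 18852 genes, was taken. A probe was described in full if it was detected above background (detection p under 0.05) on 4 or more of the 11 arrays. RNA came from livers of baboon fetuses (Papio hamadryas) at 165 days, or 0.9 of gestation, and was hybridised to human Illumina BeadChips with 1 array per fetus. The control group (CON1 to CON6) held 3 females (CON1, CON2, CON3) and 3 males, and the maternal obese group (MO1 to MO5) held 3 females (MO1, MO2, MO3) and 2 males. The array names place CON1 to CON4 on a slide called slide 1 here, and CON5, CON6 and all 5 maternal obese arrays on slide 2. In females the control and maternal obese arrays therefore lay on different slides, so slide and condition cannot be told apart there.

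A lipid droplet is a store of triglyceride and cholesteryl ester wrapped in a phospholipid monolayer. Perilipins coat that surface and govern the access of lipases, chief among them PNPLA2 (adipose triglyceride lipase), which takes the first fatty acid off a triglyceride. In liver the balance of droplet growth, lipolysis and export in very low density lipoprotein (VLDL) sets how much fat a hepatocyte holds. PLIN2 and PLIN3 are found in most tissues, PLIN1 and CIDEC mainly in fat cells, PLIN5 in tissues that burn fat, and CIDEB and HSD17B13 mainly in liver.

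Between 10131 (MO4) and 13065 (CON4) of the 48803 probes were detected per array, or 20.8% to 26.8%. The median probe intensity was 62 to 65.6 on slide 1 and 69.7 to 80.3 on slide 2, with CON6 the highest. Normalized arrays correlated at 0.924 to 0.982 across the 12065 probes that passed the detection rule. Of 12 hepatocyte markers 10 were measured, and their summed level was 104870 to 138380 in controls and 107220 to 121820 in the maternal obese group. ASGR1 was not detected, and HNF4A had no listed probe. The probes were designed on human sequence, so the level of a probe was never set against that of another.

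Of the 10 genes, 9 had a listed probe, 13 probes in all. PLIN4, a perilipin of adipose tissue and muscle, was not analysed here. Single probes of PLIN1, PLIN2, PLIN5, CIDEB, PNPLA2 and HSD17B13 passed the detection rule, which is 6 probes of 6 genes. Those of PLIN2, PLIN5, CIDEB and PNPLA2 were detected on all 11 arrays, while those of PLIN1 and HSD17B13 were detected on 6 arrays each.

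The remaining 4 genes had no probe that passed. PLIN3, the soluble perilipin that moves onto nascent droplets, was detected on 0 arrays, with intensities of 54.8 to 74.3. PNPLA3 (adiponutrin), a droplet enzyme related to PNPLA2, was also detected on 0 arrays, at 57.8 to 81.4. The probes of CIDEC, a droplet-fusion protein of fat cells and fatty liver, lay at 62.2 to 95 and 50.8 to 77.9 and were likewise detected on 0 arrays. A second PLIN2 probe (55.9 to 86.6) and a second PLIN5 probe (55.2 to 71.5) were undetected throughout, while the first probe of each was detected on every array. The undetected probes set no level for their genes in baboon liver.

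PLIN1 and HSD17B13 lay close to the detection limit, and their values carry less information than those of the 4 genes detected throughout. PLIN1 intensities ran from 75.3 to 133.4, and it was detected in 4 of 6 controls and 2 of 5 maternal obese livers. A second HSD17B13 probe fell just outside the rule. It was detected on 3 arrays, CON2, CON3 and CON4, all on slide 1, where the normalized log2 values of CON1 to CON4 were 5.12, 5.69, 5.85 and 5.40. On the 7 arrays of slide 2 it was undetected, at 4.72 to 5.08. The probe that passed was detected on 3 of those 4 slide 1 arrays and on CON6, MO1 and MO2.

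Maternal obesity against control was the comparison the series was designed for, with 5 arrays against 6. None of the 6 gene probes passed the test (limma, Benjamini-Hochberg adjusted p under 0.05 over 12065 probes), and 0 of 6 had an unadjusted p under 0.05. Over all probes 0% passed, 13.1% had an unadjusted p under 0.05, and 1.4% had groups that did not overlap. The median difference was -0.0208 over the 6 probes and 0.0359 over all probes, both on the log2 scale. The labels name no litters or cohorts, so p-values measure only the spread between these fetal samples.

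PLIN2 (adipophilin) is the main perilipin of hepatocytes, and its protein is widely used as a marker of droplet load. In controls its normalized log2 intensity was 8.04 at the lowest, 8.81 at the median and 10.29 at the highest. In the maternal obese group it was 8.92, 8.12, 8.24, 9.24 and 9.24 (MO1 to MO5). The groups overlapped, and the maternal obese values all lay inside the control range. Means were 8.91 ± 0.81 (SD, n = 6) for controls against 8.75 ± 0.54 (SD, n = 5) for the maternal obese group. The difference was -0.15 (SE 0.365, 95% interval -0.94 to 0.64, limma adjusted p = 0.863). In whole liver RNA, fewer cells of a type and less RNA per cell cannot be told apart.

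PLIN5 tethers droplets to mitochondria. Its control normalized log2 intensities were 6.93 at the lowest, 7.51 at the median and 7.77 at the highest. MO1 to MO5 stood at 7.54, 7.90, 7.59, 7.35 and 7.39. CON6 was the lowest of all arrays and MO2 the highest, with the other values of both groups interleaved. The means were 7.45 ± 0.29 (SD, n = 6) and 7.56 ± 0.22 (SD, n = 5), a difference of 0.10 (SE 0.16, 95% interval -0.24 to 0.44, limma adjusted p = 0.78).

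PLIN1, the coat protein that guards adipocyte droplets, had control values of 5.22, 5.32 and 5.81 (lowest, median and highest) and 5.38, 5.50, 5.48, 5.39 and 5.28 in MO1 to MO5. The means, 5.40 ± 0.21 (SD, n = 6) and 5.41 ± 0.0882 (SD, n = 5), differed by 0.0012 (SE 0.12, limma adjusted p = 0.996). The groups overlapped, and only CON6 stood clear of the rest. Of 10 adipocyte markers 5 were measured, with a summed level of 591.26 to 842.28 in controls and 568.23 to 754.3 in the maternal obese group. LPL, CIDEA, LIPE and CFD were not detected, TUSC5 had no listed probe, and ADIPOQ, the adipokine that defines fat cells, was detected on 6 arrays.

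CIDEB promotes droplet fusion and the loading of lipid onto VLDL in hepatocytes. Its control values were 8.56 at the lowest, 9.21 at the median and 9.66 at the highest, and MO1 to MO5 stood at 9.57, 8.51, 9.38, 9.28 and 9.23. The groups overlapped throughout, with CON4 and MO2 at the bottom and CON6 and MO1 at the top. The difference was 0.032 (SE 0.22, 95% interval -0.44 to 0.50, limma adjusted p = 0.954), between means of 9.16 ± 0.39 (SD, n = 6) and 9.19 ± 0.40 (SD, n = 5).

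PNPLA2 ranged in controls from 7.15 through a median of 7.93 to 8.73. The maternal obese values were 7.96, 7.61, 7.62, 8.10 and 8.16, all inside the control range. The lowest and the highest of the 11 arrays were both control males, CON4 and CON6. The means of 7.93 ± 0.505 (SD, n = 6) and 7.89 ± 0.26 (SD, n = 5) differed by -0.0429 (SE 0.23, 95% interval -0.53 to 0.45, limma adjusted p = 0.942).

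HSD17B13, a retinol and steroid dehydrogenase found on hepatocyte droplets, was detected in 4 of 6 controls and 2 of 5 maternal obese livers. Its control values were 5.22, 5.52 and 5.85 (lowest, median and highest), and MO1 to MO5 stood at 5.66, 5.38, 4.95, 5.43 and 5.24. The groups overlapped, with MO3 the lowest array. The difference was -0.18 (SE 0.15, 95% interval -0.50 to 0.15, limma adjusted p = 0.587).

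**Figure D1:**
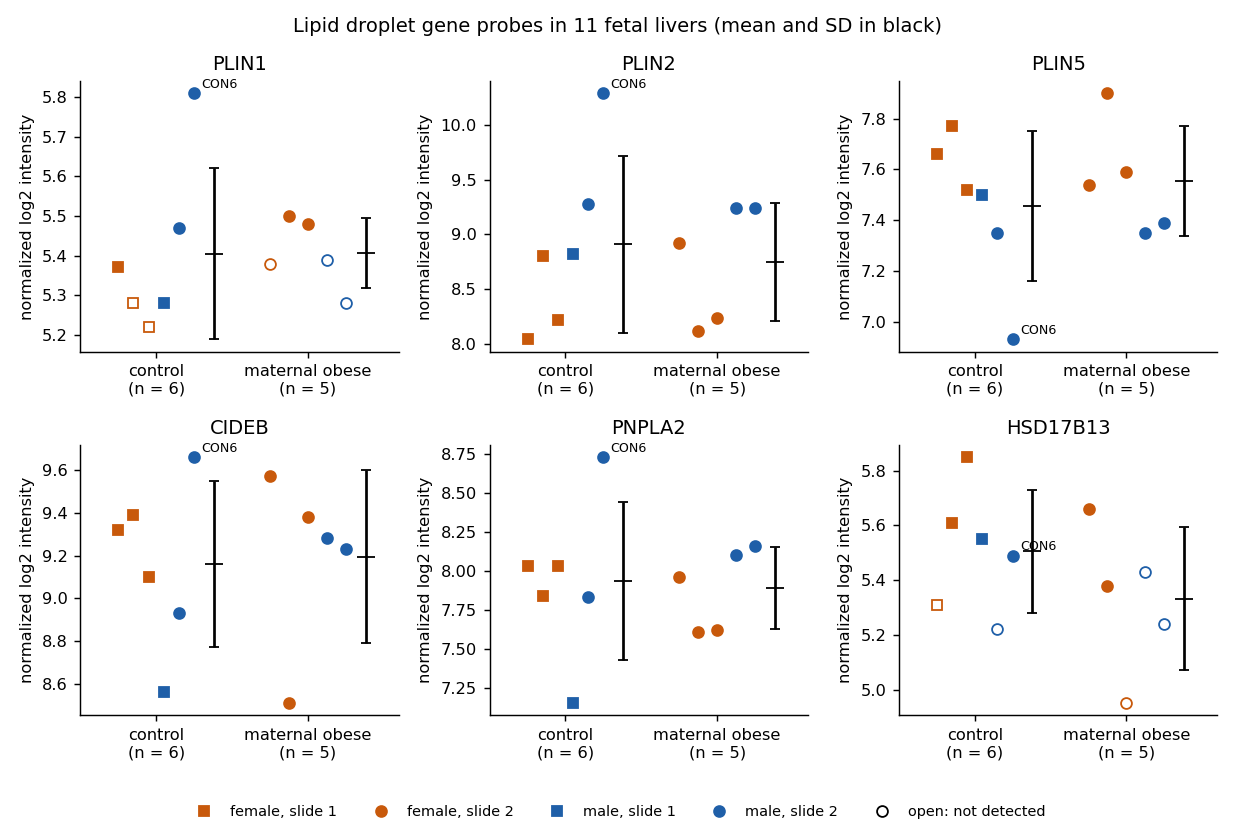
Normalized log2 intensity of the 6 detected probes in each liver, by condition, with the mean and SD of each group beside the points. Colour gives fetal sex, shape gives the slide, open points were not detected, and CON6 is labelled. CON6 is the highest point for PLIN1, PLIN2, CIDEB and PNPLA2 and the lowest for PLIN5.

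A single control male, CON6, lay at an end of the range for 5 of the 6 probes. CON6 was the highest of the 11 arrays for 4 of the 6 probes, a position it took for 15.1% of all probes tested. It was the lowest for 1 of 6, PLIN5, against 9.72% of all probes. For PLIN2, CON6 read 10.29 where the next array, CON5, read 9.28, a 2.01-fold gap. For PNPLA2 it lay 1.48-fold above MO5, while for CIDEB it lay only 1.065-fold above MO1. Against the mean of the other 5 controls, CON6 was 3.16-fold higher for PLIN2, 1.93-fold for PNPLA2 and 1.52-fold for CIDEB, and it stood at 0.649 of their mean for PLIN5. PLIN1 and HSD17B13 get no such fold, since each was undetected in 2 of those 5 controls. PLIN1 read 5.81 in CON6 and 5.22 to 5.47 in the other controls, and HSD17B13 read 5.49 in CON6 and 5.22 to 5.85.

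CON6 also stood at an end of the range for the summed levels of the macrophage and the hepatocyte markers. Of 10 macrophage markers 9 were measured (CD5L was not detected). Their summed level was 16270 in CON6, against 8701.9 to 13045 on the other 10 arrays. The summed level of the hepatocyte markers was lowest in CON6, at 104870, and the adipocyte markers stood at 609.47, inside the range of the other controls. With every adipocyte marker weighted equally, CON6 lay 0.17 log2 above their average over all arrays. The other controls lay at -0.48 to 0.21 on that scale. With the hepatocyte markers weighted in the same way, MO2 was the lowest array (-0.31) and CON6 the next (-0.28). The part of these markers in the CON6 values of the droplet genes was not tested. MO2, the highest array for PLIN5 and the lowest for CIDEB, stood apart in the stellate cell and matrix markers, 8 of 11 of which were measured (COL3A1 and LUM were not detected). Their summed level was 63534 in MO2 and 7270.1 to 17963 on the other 10 arrays, and their part was likewise not tested. On the mean log2 level of these markers, Dixon's test within the maternal obese group did not flag MO2 (ratio 0.69, critical 0.71). Without MO2 the maternal obese minus control difference was 0.0143 for PLIN5 and 0.20 for CIDEB. Without CON6 the maternal obese minus control difference was 0.12 for PLIN2, 0.12 for PNPLA2, 0.13 for CIDEB and -0.0035 for PLIN5, so that the sign turned for PLIN2, PNPLA2 and PLIN5, and 0 of 6 passed the test.

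The slide on which an array lay was examined next within controls, where 2 arrays of slide 2 faced 4 of slide 1. None of the 6 probes passed the limma test, against 9.82% of all probes. PLIN1, PLIN2 and PLIN5 had groups that did not overlap, which held for 36.2% of all probes. PLIN2 was 8.04, 8.80, 8.22 and 8.82 on slide 1 and 9.28 and 10.29 on slide 2. All slide 2 controls thus lay above all slide 1 controls. The difference was 1.32 (SE 0.39, 95% interval 0.48 to 2.16, limma adjusted p = 0.0514), a ratio of 2.49.

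PLIN5 ran the other way. Its slide 1 controls stood at 7.66, 7.77, 7.52 and 7.50 and its slide 2 controls at 7.35 and 6.93, a difference of -0.47 (SE 0.18, limma adjusted p = 0.118). For PLIN1 the difference was 0.35 (SE 0.14, limma adjusted p = 0.123), with slide 1 at 5.22 to 5.37 and slide 2 at 5.47 and 5.81. PNPLA2 differed by 0.51 (SE 0.30, adjusted p = 0.295), CIDEB by 0.20 (adjusted p = 0.727) and HSD17B13 by -0.22 (adjusted p = 0.523), all with overlapping values. Both slide 2 controls were male and 3 of the 4 slide 1 controls were female, so slide and sex were mixed in this comparison.

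Within slide 2, where 5 maternal obese arrays faced CON5 and CON6, none of the 6 probes passed, against 0.00829% of all probes. PLIN2 and PLIN5 were the only gene probes of the 6 whose groups did not overlap, against 14% of all probes. The PLIN2 estimate, maternal obese minus control, was -1.03 (SE 0.37, 95% interval -1.84 to -0.22, limma adjusted p = 0.599), at 8.12 to 9.24 against 9.28 and 10.29. The gap between the nearest values, MO5 and CON5, was narrow. Both slide 2 controls were male and 3 of the 5 maternal obese fetuses female, so sex was mixed into this comparison. For PLIN5 the estimate was 0.42 (SE 0.18, limma adjusted p = 0.639), at 7.35 to 7.90 against 6.93 and 7.35. Its nearest values, MO4 (7.354) and CON5 (7.346), were almost equal, and in the intensities before normalization the groups overlapped.

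Among the males of slide 2, 2 against 2, the difference was -0.55 for PLIN2 (limma adjusted p = 0.82) and 0.23 for PLIN5 (adjusted p = 0.861). The only controls of slide 2 were CON5 and CON6, so leaving out either shifts the slide 2 estimates by the same amount in opposite directions. Without CON6 the PLIN2 difference was -0.53 and the PLIN5 difference 0.21, and without CON5 they were -1.53 and 0.62. PNPLA2 stood at -0.39 (SE 0.29, limma adjusted p = 0.82) with both controls, at 0.0636 without CON6 and at -0.84 without CON5. CIDEB (-0.10, adjusted p = 0.959), PLIN1 (-0.23, adjusted p = 0.762) and HSD17B13 (-0.0259, adjusted p = 0.991) had overlapping groups.

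**Figure D2:**
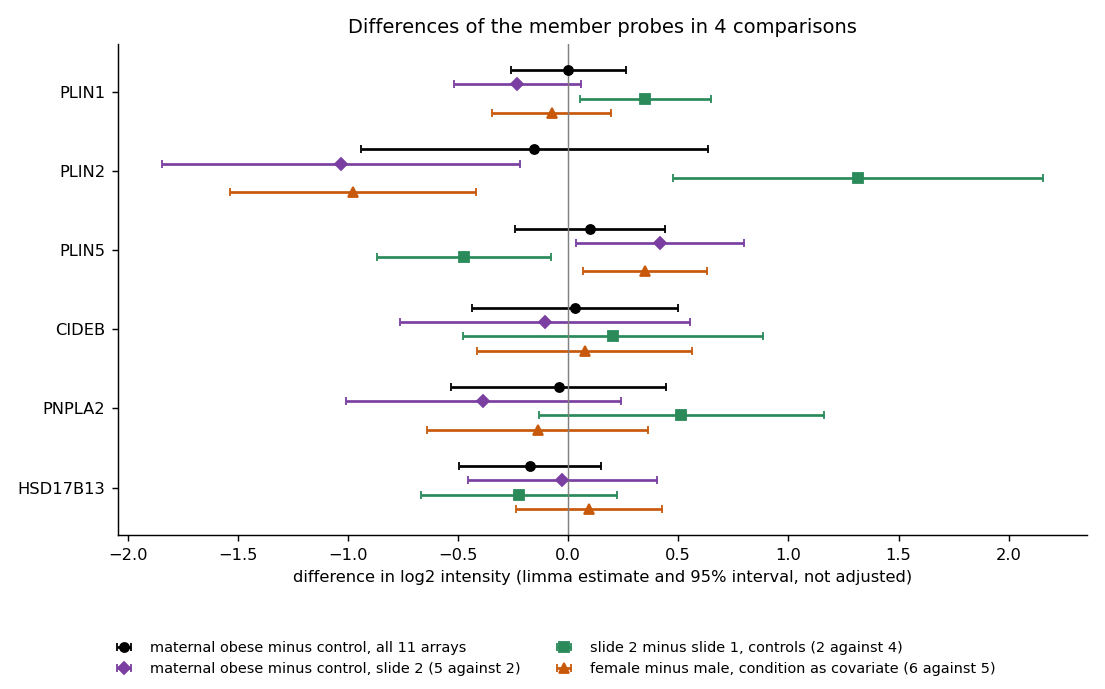
Differences in log2 intensity for the 6 probes in 4 comparisons, as limma estimates with unadjusted 95% intervals. The slide difference among controls (1.32 for PLIN2, -0.47 for PLIN5) and the difference within slide 2 (-1.03 and 0.42) share CON5 and CON6 with opposite sign, so their opposite directions are not separate observations.

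Fetal sex was compared with condition as a covariate, a comparison added after the values had been seen, and its p-values are to be read with that in mind. PLIN2 showed the clearest pattern. The female values were 8.04, 8.80 and 8.22 in controls and 8.92, 8.12 and 8.24 in the maternal obese group. The male values were 8.82, 9.28 and 10.29 in controls and 9.24 and 9.24 in the maternal obese group. Males lay above females within each condition, and across conditions MO1 (8.92) and CON4 (8.82) were the only pair to cross.

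The female minus male difference for PLIN2 was -0.98 (SE 0.26, 95% interval -1.53 to -0.42), so that females stood at 0.508 of males. Its limma p was 0.00243, rank 87 of 12065, and its adjusted p was 0.327. It therefore did not pass, as was the case for all 6 probes, against 0.0332% called among all probes. In the intensities before normalization the sexes did not overlap, with females at 289.6 to 480.9 and males at 574.1 to 1633.2. The share of all probes without overlap in those intensities was not computed. They also carry the brightness of the slide, with a median probe intensity of 62 to 65.6 on slide 1 and 69.7 to 80.3 on slide 2, where most males lay.

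PLIN5 alone among the 6 probes showed no overlap between sexes, against 0.705% of all probes. Its female values were 7.52 to 7.90 and its male values 6.93 to 7.50. The difference was 0.35 (SE 0.13, 95% interval 0.07 to 0.63, limma adjusted p = 0.369). The gap between CON3 (7.52) and CON4 (7.50) was narrow, and in the intensities before normalization the sexes overlapped. CIDEB (0.07), PNPLA2 (-0.14), HSD17B13 (0.09) and PLIN1 (-0.07) had limma adjusted p-values of 0.834 to 0.925 and overlapping sexes.

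Of the 6 female arrays 3 lay on slide 1, and of the 5 male arrays 4 lay on slide 2. With slide as a covariate beside condition the PLIN2 difference was -0.68 (limma adjusted p = 0.931) and the PLIN5 difference 0.24. Without CON6 the PLIN2 difference was -0.75. In the deposited log2 values, which were not normalized, it was -0.99 for PLIN2 and 0.14 for PLIN5.

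Maternal obesity within each sex gave no call among the 6 probes in females or in males, against 0% of all probes in each. In females, where the groups lay on separate slides, PLIN1 was the only probe without overlap, against 26.2% of all probes, at 5.22 to 5.37 in controls and 5.38 to 5.50 in the maternal obese group (difference 0.16, limma adjusted p = 0.662). PLIN2 differed by 0.0783 in females (limma adjusted p = 0.941) and by -0.22 in males (adjusted p = 0.865). For PLIN5 the values were 0.0278 and 0.11, and for CIDEB -0.12 and 0.20. PNPLA2 stood at -0.23 in females and 0.22 in males, and HSD17B13 at -0.26 in females.

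In males the comparison rested on 2 arrays against 3. PLIN1 was not detected on either maternal obese male (limma adjusted p = 0.751). The mean of the control males lay 1.04-fold above the bound set by each array's weakest detected signal. The groups overlapped, with CON4 (5.28) below MO4 (5.39), so this fold does not hold for each control male. HSD17B13 was likewise undetected in both maternal obese males, and no fold could be given. The test of the difference between the sexes called 0% of all probes and none of the 6. Its estimates were 0.30 for PLIN2, 0.35 for PLIN1, -0.085 for PLIN5, -0.32 for CIDEB, -0.46 for PNPLA2 and -0.17 for HSD17B13, with limma adjusted p-values of 0.775 to 0.968. The fitted values of PLIN1 and HSD17B13 there include the undetected males.

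**Figure D3:**
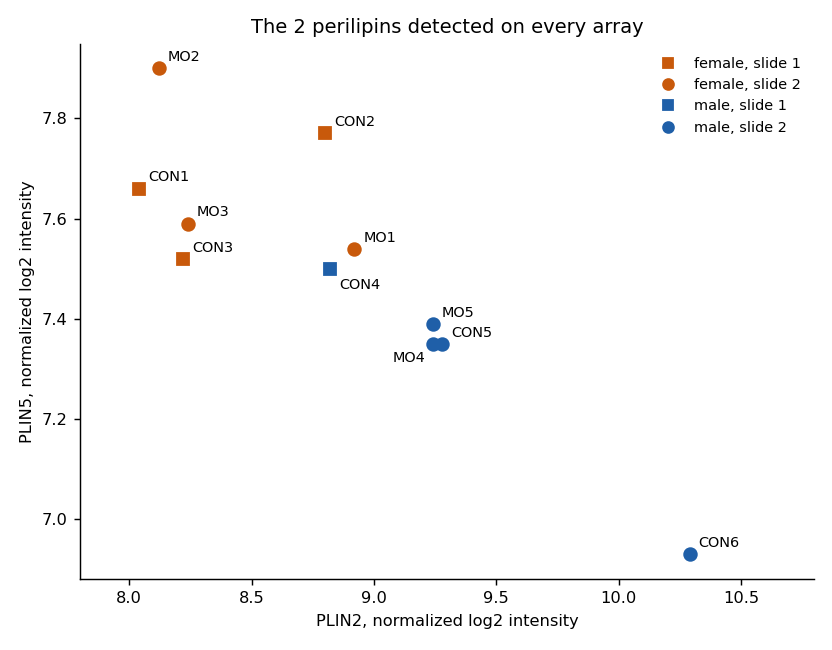
PLIN5 against PLIN2 in each liver, both as normalized log2 intensity, with sex by colour and slide by shape. CON6 lies at the lower right (10.29 and 6.93), and all 5 males lie below every female on the PLIN5 axis.

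The genes were then compared with each other across livers, after subtraction of each slide's mean. These correlations are descriptions over 11 arrays that share slides, sexes and CON6. PLIN2 and PLIN5 ran in opposite directions, with Pearson's r of -0.843, Spearman's rho of -0.636 and r of -0.684 without CON6. CIDEB and PNPLA2 ran together, at 0.719, 0.579 and 0.657. PLIN2 and PNPLA2, the coat and the lipase, had an r of 0.533, which fell to 0.13 without CON6, and PLIN5 and PNPLA2 moved from -0.604 to -0.246. The r of PLIN1 and PLIN2 changed sign, from 0.399 to -0.569.

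Among the 9802 other named probes, those whose slide-centred pattern was most like that of PLIN2 were NSFL1C (r 0.898), EBP (0.892), MGST1 (0.89), MFAP2 (0.889) and SLC20A2 (0.879). EBP, an isomerase of cholesterol synthesis, kept an r of 0.878 without CON6. The probes most like PLIN5 were RHBDL2 (0.939), ECM2 (0.929), PDGFRL (0.925), CLIP3 (0.915) and SH2D3C (0.91). CIDEB was most like RPP25L (0.928), APOE (0.922), MRPL30 (0.916), FCN2 (0.914) and OCEL1 (0.914). APOE, a lipoprotein component made by hepatocytes and macrophages, stood at 0.939 without CON6. PNPLA2 was most like SLC38A3 (0.921), a glutamine transporter of liver, whose r was 0.961 without CON6, followed by TRIM6 (0.92), ZBTB33 (0.919), PROZ (0.914) and ZNF691 (0.909).

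Other genes that build, empty or regulate droplets were taken from 5 lists of 68 genes, 41 of which were measured. Of these, 0 of 41 passed the limma test of maternal obese against control, where 0% of all probes did. The smallest adjusted p was 0.33. At an unadjusted p under 0.05, 3 were higher and 3 lower, near the 13.1% of all probes. The median difference was 0.03 over the 41 genes and 0.04 over all probes. Slide 1 held only controls, so each list is also given within slide 2, where 0 of 41 passed (smallest limma adjusted p = 0.582, against 0.00829% of all probes called).

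Partners of lipolysis and other neutral lipases had 7 of 15 genes measured, 3 of them above 0, with a median of -0.0931, and within slide 2 the median was -0.12. CES1, a carboxylesterase that hydrolyses triglyceride and cholesteryl ester, was detected in 4 of 6 controls, 3 of them on slide 1, and in 0 of 5 maternal obese livers. Over all arrays the fitted difference was -0.55 (limma adjusted p = 0.377), but within slide 2 it was -0.16. Both values include undetected arrays of both groups, so no fold is given. LIPA, the lysosomal acid lipase, stood at -0.46 (adjusted p = 0.384) over all arrays and at -0.0153 within slide 2. MGLL, which splits monoglycerides, stood at -0.20 (0.649) and -0.27 within slide 2. AADAC, an esterase of the endoplasmic reticulum, stood at 0.27 (0.656) and 0.0089. ABHD5, the coactivator of PNPLA2, its inhibitors G0S2 and HILPDA, and the lipase LIPE were not detected.

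Droplet formation and growth had 11 of 17 genes measured, 7 above 0, with a median of 0.0598, or 0.0106 within slide 2. FAF2, a droplet protein that targets others for degradation, was 8.88 to 8.99 in the maternal obese group and 8.51 to 8.74 in 5 controls, with CON6 at 9.01 (difference 0.26, limma adjusted p = 0.367, and 0.13 within slide 2). Only CON6 joined the ranges. SPAST, a microtubule-severing enzyme found on droplets, was detected on exactly the 4 slide 1 arrays, at 5.52 to 6.17, and on no slide 2 array. For maternal obese minus control the fitted difference was -0.57 (limma adjusted p = 0.354). It includes undetected arrays of both groups, so no fold is given. Within slide 2 no array detected SPAST and no difference can be given. AUP1, a droplet protein of lipid and protein turnover, stood at 0.22 (adjusted p = 0.424) over all arrays and 0.21 within slide 2. VPS13C, a lipid transfer protein, stood at 0.27 (0.452) and turned to -0.0869 within slide 2.

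Other enzymes found on droplets had 8 of 11 genes measured, 2 above 0, with a median of -0.17. Within slide 2, 6 of 8 were above 0, with a median of 0.20. Those 6 include RDH10, which was almost at 0, and SQLE and LSS, which were undetected on several slide 2 arrays. They therefore do not establish a turn in direction. Between the slides, among controls, the median was -0.61. RDH10, a retinol dehydrogenase, was 6.68 to 7.64 in the maternal obese group and 7.19 to 8.01 in controls (difference -0.46, limma adjusted p = 0.371), and within slide 2 the difference was 0.0004. SQLE and LSS, neighbouring enzymes of cholesterol synthesis, stood at -1.004 (adjusted p = 0.389) and -0.52 (0.555) over all arrays. Within slide 2 both fitted values turned, to 0.24 (0.929) and 0.36 (0.887). LSS was not detected in either slide 2 control or in the maternal obese females. SQLE was not detected in CON6 or in those females, so the values of both genes include undetected arrays. HSD17B11, a relative of HSD17B13, stood at -0.25 (0.699) and turned to 0.43 within slide 2 (0.801).

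The normalized log2 intensity of SQLE varied widely between arrays. It read 6.81, 6.94, 7.52 and 7.69 on slide 1, 5.68 in CON5 and 6.43 and 6.48 in the maternal obese males. In CON6 and the 3 maternal obese females it was not detected. Between slides, among controls, 3 of the 41 pathway genes passed the limma test, all lower on slide 2, against 9.82% of all probes. They were SQLE (-1.87, adjusted p = 0.0268), HSD17B7 (-0.54, adjusted p = 0.0484), another enzyme of cholesterol synthesis, and SPAST. SPAST, undetected on slide 2, was at least 1.22-fold higher on slide 1 (limma adjusted p = 0.0152). Without CON5, and likewise without CON6, 0 of the 41 passed.

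Lipid-sensing regulators and their targets had 10 of 17 genes measured, 8 above 0, with a median of 0.24, and within slide 2 the median was 0.13. PPARD, a nuclear receptor for fatty acids, was 5.77, 5.86, 5.47, 5.98 and 5.69 in MO1 to MO5 and 5.25 to 5.57 in controls. The difference was 0.35 (SE 0.12, limma adjusted p = 0.33) over all arrays, with groups overlapping through MO3, and 0.30 within slide 2. PPARD was not detected in CON1 (5.25) or CON6 (5.45), so both differences include undetected controls. MLXIPL, the carbohydrate-response factor of liver, was 10.89 to 11.20 against 10.23 to 11.07 (difference 0.32, adjusted p = 0.376), but 0.0142 within slide 2. PPARG stood at 0.27 (adjusted p = 0.486, and 0.25 within slide 2) and the fatty acid transporter CD36 at -0.48 (0.382, and -0.70 within slide 2). The targets ANGPTL4, PDK4, CPT1A, FABP1 and FGF21 were not detected.

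VLDL assembly had 5 of 8 genes measured, 3 above 0, with a median of 0.0649, or 0.10 within slide 2. APOB, the structural protein of VLDL, stood at 0.15 (limma adjusted p = 0.521), APOA4 at -0.28 (0.476), TM6SF2, which helps load lipid onto VLDL, at 0.11 (0.838) and APOC3 at 0.0649 (0.855). Within slide 2 they stood at 0.21, -0.60, 0.36 and 0.10, in that order. For APOA4, CON6 read 7.01, against 6.21 in CON5 and 5.83 to 6.10 in the maternal obese group.

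**Figure D4:**
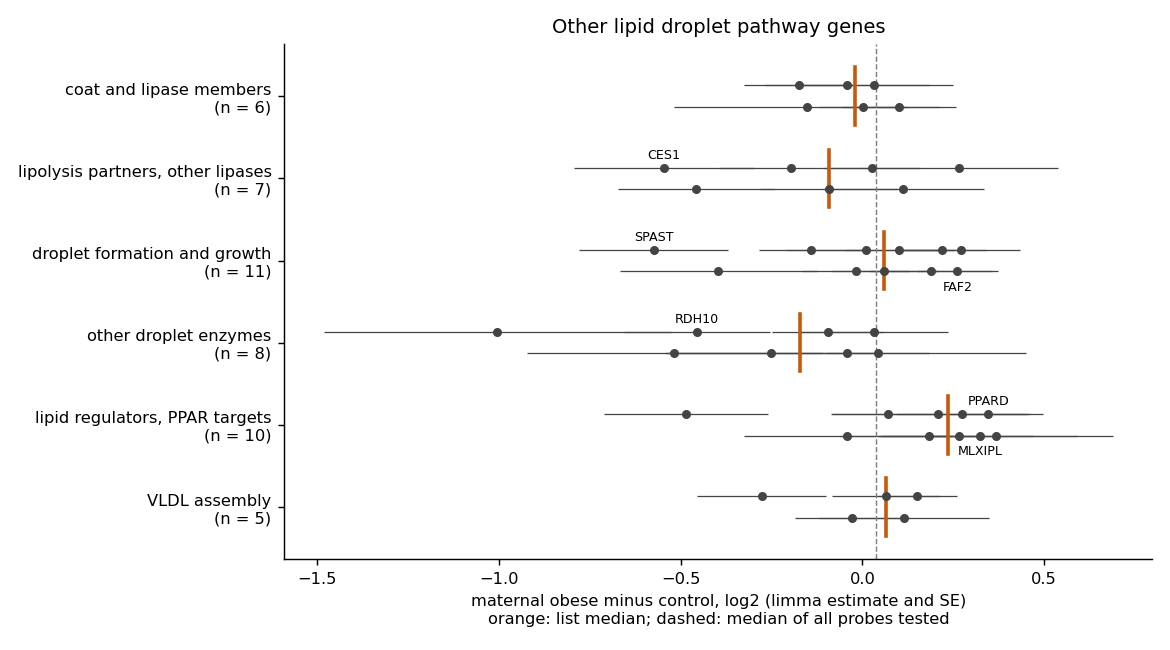
Maternal obese minus control differences in log2 intensity (limma estimate with SE) for the 6 gene probes and the measured genes of 5 related lists, where each point is a gene. Orange lines mark list medians and the dashed line the median of all probes (0.04), and genes with an unadjusted p under 0.05 are named. List medians lie between -0.17 and 0.24.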

How the data were processed

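Liver RNA of 11 fetuses was measured on Illumina BeadChips, with 1 array per fetus. GenomeStudio and Partek are named in the submitters' processing notes; no roles or versions are stated for either. The deposited table pairs, for each probe and array, a linear-scale intensity with a detection p-value. The deposited series matrix holds log2 values that equalled the log2 of those intensities within 5e-09, so they were not normalized; there were 0 unmatched columns of values. Here limma 3.58.1 in R 4.3.3 (neqc) applied normexp background correction with an offset of 16, quantile normalization and log2. Probes with a detection p under 0.05 on 4 or more arrays were kept, 12065 of 48803. The platform annotation named 1 gene for 28098 probes and several genes for 13, with 20692 unlisted.

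Differences were tested with lmFit and eBayes over all kept probes (two-sided, Benjamini-Hochberg adjusted, threshold 0.05), from group means of condition, of condition and slide, or of condition and sex. A gene undetected on every array of a group has only a bound there, set by each array's weakest detected signal. A fold against that bound is printed only where the other group was detected on every array. Genes named were all detected probes of the droplet genes, up to 4 genes per related list with the smallest p for maternal obese against control, and up to 5 probes most like each gene detected throughout; HSD17B7 was added after its values were seen. A gene with several kept probes in a related list was represented by the probe with the highest mean. A marker list's summed level is the sum of its probes' normalized intensities on the linear scale. The fit was tested on simulated data. The genes and lists were chosen with earlier results of these data known. The number of arrays limits the precision. The alternatives tried covered normalization, background correction, the detection rule, slide, sex, array weights and each array left out; the closing section gives their effect.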

Additional observations from a re-analysis of the deposited data

How the results depend on the processing

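The 6 droplet gene probes gave 652 values under alternative settings, of which 580 kept their direction and side of the threshold, 71 changed sign and 1 newly passed, PLIN2 between the slides without MO2 (limma adjusted p = 0.0415, against 0.0514). All values that changed sign were at most 0.34 in size on the log2 scale, and the cause was not tested. Median scaling in place of quantile normalization moved the median of all probes by -0.17 for maternal obese minus control, -0.12 within slide 2, -0.29 in males and 0.24 for the difference between sexes, and the deposited log2 values moved it by -0.12 for female minus male.

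For maternal obese minus control, 0 probes passed, with 1 on the deposited log2 values, 1 with slide as a covariate, 1 with sex as a covariate, 9 with array weights, 5 with slide as a covariate and CON6 left out (added after seeing the data), and 0 to 2 with an array left out (2 without CON5). Within slide 2 the 1 probe called became 0 with median scaling and 0 to 5 with an array left out (5 without CON6). Between the slides 1185 became 90 to 1248, with 90 without CON6, 286 without CON5 and 696 without CON3. Females gave 0 to 456 (456 without CON4), males 0 to 4 (4 without MO5), the difference between sexes 0 to 20 (20 without CON4), and female minus male 2 with median scaling. Of the pathway genes, 3 passed between the slides, 1 where detection on 5 or more arrays was asked, and 0 to 4 with an array left out (4 without MO4, 1 without CON3, 0 without CON5 and 0 without CON6). In maternal obese minus control 0 of the 41 pathway genes passed under any of the 26 settings. The sign of SQLE changed in 4 of 25 settings (-1.32 to 1.08), of LSS in 5 of 25 (-0.83 to 1.06), of HSD17B11 in 6 of 26 (-0.44 to 0.66), of VPS13C in 4 of 26 (-0.32 to 0.39), of RDH10 in 3 of 26 (-0.68 to 0.0261) and of LIPA in 2 of 25 (-0.58 to 0.12). AADAC changed in 2 settings, TM6SF2 and APOC3 in 3 each, and MGLL, AUP1, MLXIPL and APOB in 1 each.

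Signs changed for maternal obese minus control as follows. Median scaling gave PLIN1 -0.0595, PLIN5 -0.13 and CIDEB -0.21. The deposited log2 values gave CIDEB -0.0732. PLIN1 and CIDEB stood at -0.23 and -0.10 with slide as a covariate and on slide 2 only, -0.11 and -0.0337 with slide as a random block, -0.28 and -0.23 with slide and sex as covariates, and -0.30 and -0.0417 in males of slide 2 only. Array weights gave PLIN2 0.14 and PLIN5 -0.0075. With slide as a covariate and CON6 left out, PLIN1 stood at -0.0634, PNPLA2 at 0.0636 and HSD17B13 at 0.11. In females, median scaling gave PLIN2 -0.0369 and PLIN5 -0.0716. In males it gave PLIN5 -0.28, CIDEB -0.19 and PNPLA2 -0.17, and slide as a covariate gave CIDEB -0.0417 and PNPLA2 -0.15. For the difference between sexes, median scaling gave PLIN5 0.21, and slide as a covariate PLIN2 -0.34 and PLIN5 0.16. For female minus male, the deposited values gave CIDEB -0.0304 and HSD17B13 -0.10, and slide as a covariate PLIN1 0.0767 and PNPLA2 0.071.

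With each array left out in turn, maternal obese minus control ran from -0.0348 to 0.0817 for PLIN1, -0.33 to 0.12 for PLIN2, -0.0035 to 0.16 for PLIN5, -0.0877 to 0.20 for CIDEB and -0.20 to 0.12 for PNPLA2. Within slide 2 the ranges were -0.47 to 0.26 for CIDEB, -0.84 to 0.0636 for PNPLA2 and -0.16 to 0.11 for HSD17B13, and between the slides -0.16 to 0.57 for CIDEB. In females they were -0.17 to 0.30 for PLIN2, -0.0842 to 0.0972 for PLIN5 and -0.33 to 0.20 for CIDEB. In males they were -0.55 to 0.19 for PLIN2, -0.0505 to 0.23 for PLIN5, -0.0417 to 0.51 for CIDEB, -0.15 to 0.64 for PNPLA2 and -0.19 to 0.0074 for HSD17B13. For the difference between sexes they were -0.11 to 0.62 for PLIN2, -0.21 to 0.0783 for PLIN5 and -0.34 to 0.0169 for HSD17B13. For female minus male they were -0.13 to 0.017 for PLIN1, -0.0658 to 0.22 for CIDEB and -0.35 to 0.0415 for PNPLA2. PLIN2 and PLIN5 kept their sign there, at -1.12 to -0.75 and 0.26 to 0.41. The lone array that stays in a slide group after its partner is left out is assumed to vary like the other groups.

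No paired analysis was run, since the groups held different fetuses with 1 array each and the labels name no pairs. Signal over background limits PLIN1, HSD17B13, CES1 and SPAST, which lay near the detection limit. It also limits PPARD, LSS and SQLE, each of which was undetected on some arrays.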
